A study of Mus musculus with 9 samples.

Results

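Cytochromes P450 and flavin-containing monooxygenases are the main oxidising enzymes of foreign compounds, and 78 genes of both families and of microsomal epoxide hydrolase were followed across 3 populations of cells sorted from the mouse trachea. They were all genes whose symbol in the array annotation begins with Cyp or Fmo followed by a digit, and Ephx1, each taken from the brightest of its probe sets by mean signal, out of 18193 genes measured. Por, the electron donor of the microsomal P450s, was not analysed here, nor were 6 Cyp genes, Cyp2a5 among them, whose probe sets are annotated to more than 1 gene. The cells came from the tracheal epithelium of KRT5-GFP hemizygous mice, in which the keratin 5 promoter drives a green fluorescent protein (GFP), and all groups carried this transgene. No age or sex was used here, and whether animals were pooled is not given in the sources used here. Cells were sorted by GFP and by the isolectin GSI-A3B into KRT5-GFP+, lectin+ basal cells (the GFP+ gate), KRT5-GFP-, lectin+ cells, which the labels also call basal (the lectin-only gate), and KRT5-GFP-, lectin- columnar epithelium (the columnar gate). Each gate had 3 biological replicates, so 9 Affymetrix arrays were compared on a log2 scale, where 1 unit is a doubling.

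A P450 is a haem protein that inserts 1 atom of molecular oxygen into its substrate, with electrons that reach it from NADPH through a reductase. Flavin monooxygenases oxidise nitrogen and sulphur atoms of drugs and amines, and epoxide hydrolases open the reactive epoxides that some P450s make. In the mouse airway, club cells are known for a large content of P450s, above all of Cyp2f2, which turns naphthalene into the epoxide that injures them. Families of larger number mostly act on the body's own sterols, steroids, vitamin D and retinoids.

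Markers followed the gates. All 11 basal markers, Krt5 and Trp63 among them, were higher in the GFP+ and in the lectin-only gate than in the columnar gate, and 13 and 11 of 15 ciliated markers were lower. For GFP+ cells Krt5 is no separate check, since its promoter drives the GFP they were sorted by. The club and secretory list of 14, which includes Cyp2f2, was above background in all gates, with summed linear signals of 72023 to 93384 in GFP+, 96628 to 105019 in lectin-only and 127976 to 143250 in columnar cells. Of 22 leukocyte markers, 18 were higher in lectin-only than columnar cells and 16 were lower in GFP+ than lectin-only cells. Fibroblast markers moved too, with 3 of 12 higher and 5 lower in GFP+ than columnar cells, as did 4 of 12 endothelial and 3 of 7 smooth muscle markers, higher in lectin-only than columnar cells. Replicate 3 of the lectin-only gate stood apart, with 73.1% of probe sets above the background level against 65.4% to 66.4% on the other arrays. In sorted populations such as these, fewer cells of a type and less RNA per cell cannot be told apart. A background level of 3.55 was taken from 77 probe sets for smell and vomeronasal receptors, of which 95% lay lower. Calls needed both an adjusted p under 0.05 in limma and a log2 difference of at least 1 in size.

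Of the 78 genes, 9 were called between GFP+ and columnar cells, and the promoters of the 6 that have an entry in RefSeq (GRCm38.p6) are printed here because they are the regulatory stretches next to the genes that the results turn on. Each runs 5′ to 3′ in the direction of its gene from 250 bases before to 50 bases after its start. Capitals mark GCGTG, the core bound by the dioxin receptor Ahr with Arnt, or TGAGTCA, the AP-1 site, each on either strand (CACGC and TGACTCA on the strand printed). The first 4 belong to genes higher in GFP+ cells and the last 2 to genes lower in them.
Cyp26b1 (chr6:84593761-84594060, minus strand): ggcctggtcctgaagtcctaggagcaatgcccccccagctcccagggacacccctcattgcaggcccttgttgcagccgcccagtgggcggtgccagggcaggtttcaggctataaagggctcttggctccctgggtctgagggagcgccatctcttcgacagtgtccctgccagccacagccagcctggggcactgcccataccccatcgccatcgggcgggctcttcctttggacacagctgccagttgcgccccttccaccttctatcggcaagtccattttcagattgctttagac
Cyp3a13 (chr5:137921570-137921869, minus strand): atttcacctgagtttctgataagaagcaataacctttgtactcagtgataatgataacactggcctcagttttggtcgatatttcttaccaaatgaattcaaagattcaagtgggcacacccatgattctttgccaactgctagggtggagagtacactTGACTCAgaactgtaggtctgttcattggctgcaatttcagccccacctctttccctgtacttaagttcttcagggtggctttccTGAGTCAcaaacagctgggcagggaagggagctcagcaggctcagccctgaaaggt
Cyp2j9 (chr4:96591436-96591735, minus strand): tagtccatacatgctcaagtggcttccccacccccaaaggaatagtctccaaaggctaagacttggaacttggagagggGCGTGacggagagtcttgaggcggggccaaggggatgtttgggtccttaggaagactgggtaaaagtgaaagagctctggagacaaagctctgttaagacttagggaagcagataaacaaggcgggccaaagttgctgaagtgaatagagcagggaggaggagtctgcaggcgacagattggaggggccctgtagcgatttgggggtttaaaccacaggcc
Cyp2s1 (chr7:25816476-25816775, minus strand): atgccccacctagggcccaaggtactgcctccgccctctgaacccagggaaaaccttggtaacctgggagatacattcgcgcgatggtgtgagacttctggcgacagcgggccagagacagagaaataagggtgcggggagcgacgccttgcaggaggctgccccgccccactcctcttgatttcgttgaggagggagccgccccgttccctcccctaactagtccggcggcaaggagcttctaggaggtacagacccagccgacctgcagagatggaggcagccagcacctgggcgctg
Cyp2b10 (chr7:25897408-25897707, plus strand): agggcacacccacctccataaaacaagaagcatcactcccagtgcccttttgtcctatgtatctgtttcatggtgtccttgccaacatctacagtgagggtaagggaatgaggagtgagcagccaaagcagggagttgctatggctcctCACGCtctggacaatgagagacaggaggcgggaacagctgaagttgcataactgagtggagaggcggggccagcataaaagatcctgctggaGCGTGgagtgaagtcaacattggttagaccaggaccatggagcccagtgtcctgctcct
Cyp4f15 (chr17:32685409-32685708, plus strand): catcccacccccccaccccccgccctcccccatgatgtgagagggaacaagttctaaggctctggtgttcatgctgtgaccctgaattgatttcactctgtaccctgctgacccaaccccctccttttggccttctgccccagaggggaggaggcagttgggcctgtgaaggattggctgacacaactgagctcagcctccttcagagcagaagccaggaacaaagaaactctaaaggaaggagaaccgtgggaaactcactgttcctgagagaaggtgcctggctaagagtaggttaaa

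Cyp3a13 held 2 AP-1 sites, which began 6 and 91 bases before its start, and the other 5 promoters held none. Of 32851 promoters of this length, 5.2% held at least 1 such site and 0.222% held 2 or more. The Ahr core was found 2 times in Cyp2b10, 9 and 101 bases before the start, and 1 time in Cyp2j9, 171 bases before it, while 32.4% of all promoters held it and 11.1% held it 2 or more times. With 2 of 6 promoters, its share here is near that of promoters at large. These are matches of letters, and the arrays did not measure binding.

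Many of the genes gave no signal above background. Of the 78, 39 were under it on all arrays, 30 were above it on all 9 arrays, and 9 on some. Of families 1 to 3, 30 of the 43 genes were under background throughout, among them Cyp1a1 and Cyp1a2, which metabolise aromatic hydrocarbons and amines, and Cyp2e1, the ethanol-oxidising P450. Cyp1a1 lay between 1.90 and 2.80, Cyp1a2 between 1.66 and 2.23 and Cyp2e1 between 1.79 and 2.49 over all arrays. Above background on all 3 arrays were 30 genes in GFP+ cells, 32 in lectin-only cells and 32 in columnar cells.

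The GFP+ gate was set against the columnar gate to ask which oxidising enzymes differ between basal cells and columnar epithelium. Cyp26b1, Cyp3a13, Cyp2j9 and Cyp2s1 were higher in GFP+ cells, and Cyp4f15, Fmo1, Cyp7b1, Cyp2b10 and Cyp4a12a were lower. The 4 higher genes are 5.13% of the 78, where 5.88% of all genes tested were called higher, and the 5 lower ones are 6.41%, where 5.33% of all genes were called lower. Over all 78, calls were thus about as frequent as among genes at large, though 39 of the 78 were under background on all arrays. With only genes above background on at least 3 arrays fitted, 4 of 34 members were higher and 6 lower. In that fit 2064 of 14287 genes were called in either direction, a smaller share than of the members. Such a filter can keep a gene through the 1 gate where it is bright. The median log2 difference of the 78 was -0.14, against -0.04 over all genes. Of the marker lists, 8 of 14 club and secretory genes and 13 of 15 ciliated genes were lower and 11 of 11 basal genes higher in the same comparison, and their part in the calls of the 78 genes was not tested.

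Among families 1 to 3, which oxidise drugs and other foreign compounds, Cyp3a13 was the gene of largest difference. This member of the drug- and steroid-oxidising family 3 had log2 signals of 9.09, 9.06 and 9.56 in GFP+ cells, 8.99, 8.50 and 9.38 in lectin-only cells and 5.36, 4.40 and 6.21 in columnar cells. Both lectin-binding gates lay above all columnar arrays and overlapped each other. The GFP+ level was 15.1-fold the columnar one (log2 difference 3.91 ± 0.42, limma SE, adjusted p = 2.32e-04), and the lectin-only level 12.4-fold (3.64 ± 0.42, adjusted p = 5.78e-04). Between both lectin-binding gates the difference was 0.28 ± 0.42 (adjusted p = 0.844).

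Cyp2j9, of a subfamily that makes epoxides of arachidonic acid, showed the same order. Its signals were 8.65, 8.80 and 9.11 in GFP+ cells, 8.21, 8.18 and 9.02 in lectin-only cells and 6.41, 6.09 and 6.19 in columnar cells. It was higher by 2.63 ± 0.25 in GFP+ against columnar (adjusted p = 1.35e-04) and by 2.24 ± 0.25 in lectin-only against columnar (adjusted p = 5.19e-04). Its neighbour Cyp2j6, with no protein-coding gene between them in the RefSeq table of GRCm38.p6, had signals of 8.56, 8.70 and 8.90, then 9.52, 9.34 and 9.44, and 9.13, 9.92 and 9.59 in the same gates. The GFP+ arrays of Cyp2j6 were thus the lowest, with a difference of -0.82 ± 0.22 from columnar that passed the p threshold (adjusted p = 0.0318) but not the size. It was -1.03 and called without columnar replicate 1, -0.64 without columnar replicate 2 and -0.47 as the mean of both probe sets (adjusted p = 0.204), since the other probe set gave -0.11. Whether both neighbours differ in their change was not tested.

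Cyp2s1, an extrahepatic P450 that dioxin induces, had signals of 11.47, 11.20 and 11.32 in GFP+ cells, 10.39, 10.29 and 10.55 in lectin-only cells and 9.50, 10.06 and 10.28 in columnar cells. The 3 gates did not overlap. GFP+ cells were higher than columnar cells by 1.38 ± 0.22 (2.61-fold, adjusted p = 0.0022), and their difference from lectin-only cells, 0.92 ± 0.22 (adjusted p = 0.0484), fell short of the size threshold. That comparison was called under other scalings, by 1.08 with each array centred on its median and by 1.01 after quantile normalization. Over all 21 alternatives it ranged from 0.85 to 1.08, with an adjusted p of up to 0.204.

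Cyp2b10, the phenobarbital-inducible P450, ran the other way. It had signals of 10.64, 11.08 and 11.36 in GFP+ cells, 12.05, 11.66 and 12.44 in lectin-only cells and 12.57, 12.71 and 12.63 in columnar cells, again without overlap. GFP+ cells were lower than columnar cells by 3.05-fold (-1.61 ± 0.25, adjusted p = 0.0019), and the other probe sets of the gene, at -1.78 and -1.70, lay close to it. The difference from the lectin-only gate was -1.02 ± 0.25 and just missed the threshold (adjusted p = 0.0522). It was called under 6 of 21 alternatives, at -1.22 without lectin-only replicate 2. Over all of them it ranged from -1.22 to -0.63, with an adjusted p of up to 0.261. Cyp2b10 and Cyp2s1, which moved in opposite directions, are also neighbours with no protein-coding gene between them.

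**Figure D1:**
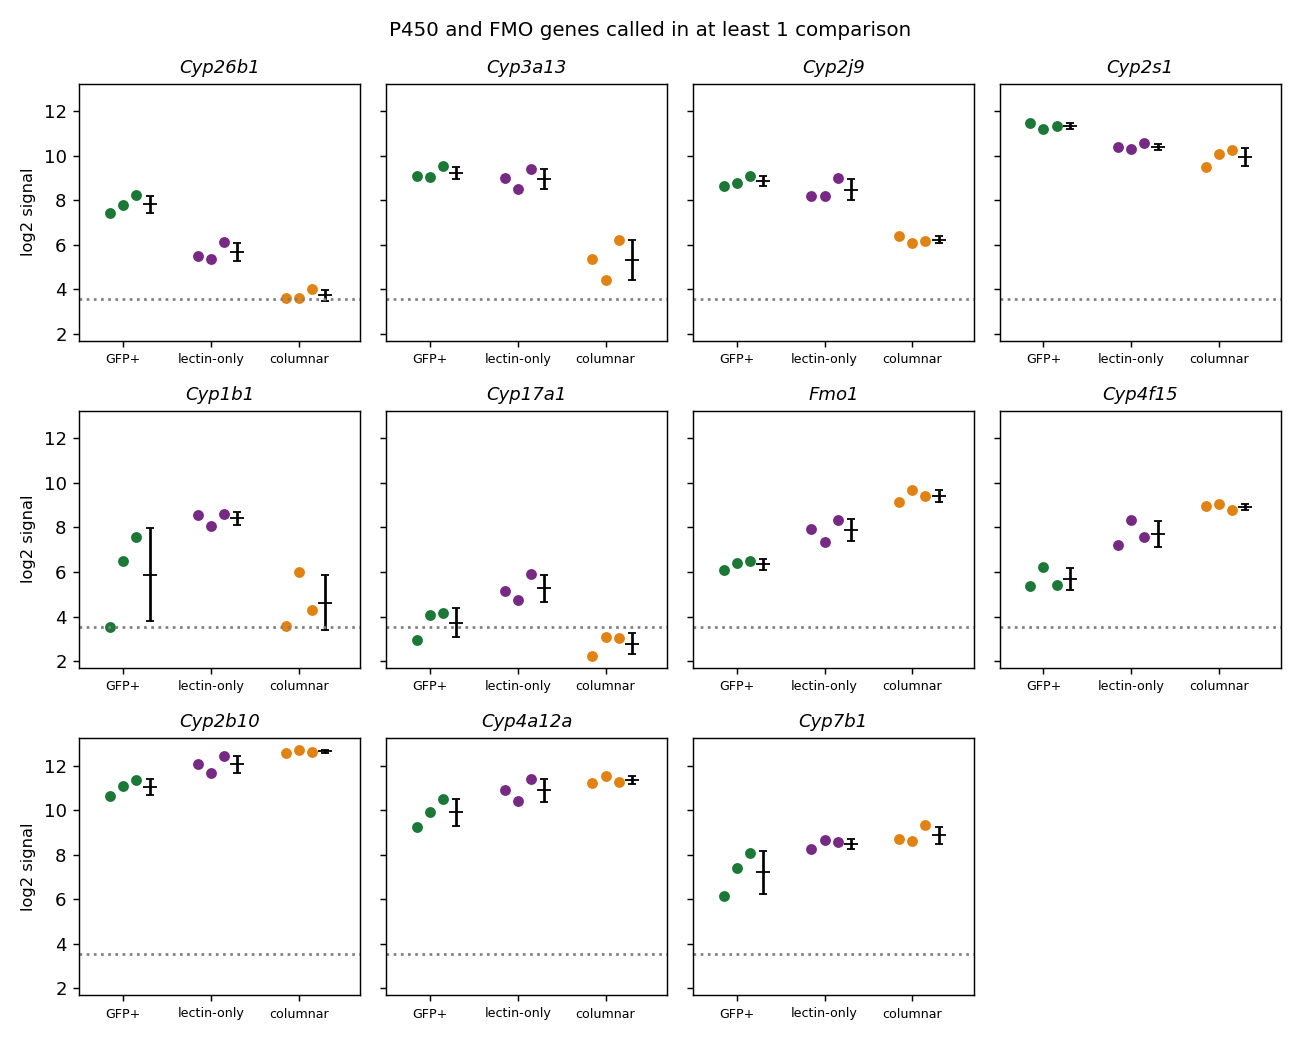
Log2 signal (vertical axis) of the 11 genes called in at least 1 comparison, by gate. Points are arrays in the order of replicate, bars are the mean and SD of 3 arrays, and the dotted line is the background level of 3.55. Cyp26b1 and Cyp2s1 step down through the GFP+, lectin-only and columnar gates, and Fmo1 and Cyp4f15 step up through them.

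Cyp2f2, the naphthalene-activating P450 of club cells, was not called in any comparison. Its signals were 13.31, 13.34 and 13.55 in GFP+ cells, 13.49, 13.45 and 13.53 in lectin-only cells and 13.51, 13.65 and 13.58 in columnar cells, and all gates overlapped. The differences were -0.18 ± 0.15 for GFP+ against columnar (adjusted p = 0.542) and -0.09 ± 0.15 for lectin-only against columnar (adjusted p = 0.808). Cyp2f2 lay near the top of the scale, since the brightest probe set of each array was between 14.34 and 14.96, and whether its probes still respond there was not tested.

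Family 4 mainly hydroxylates fatty acids and eicosanoids. Of its 13 measured genes, 2 were lower in GFP+ than in columnar cells (15.4%, where 5.33% of all genes were lower) and 0 were higher (5.88% of all genes). Cyp4f15, of the subfamily that hydroxylates leukotrienes and long fatty acids, had signals of 5.38, 6.24 and 5.40 in GFP+ cells, 7.21, 8.32 and 7.59 in lectin-only cells and 8.97, 9.04 and 8.79 in columnar cells. The gates did not overlap, and the GFP+ level was 9.59-fold lower than the columnar one (-3.26 ± 0.32, adjusted p = 1.5e-04). Lectin-only cells were lower than columnar cells by 2.34-fold (-1.23 ± 0.32, adjusted p = 0.0372). That call was lost without any 1 columnar array, without lectin-only replicate 1 (-0.98) or 3 (-1.17), or without GFP+ replicate 3 (-1.23). Genes a few places away on the same chromosome were not called: Cyp4f16 lay between 7.96 and 8.62 over all arrays, with a difference of 0.03 ± 0.19 (adjusted p = 0.949) in GFP+ against columnar, though its other probe set gave -1.05, and Cyp4f13 was at -0.54 ± 0.26 (adjusted p = 0.231). Both were chosen for naming after their values were seen.

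Cyp4a12a, a hydroxylase of arachidonic acid known from male mouse kidney, had signals of 9.25, 9.93 and 10.50 in GFP+ cells, 10.89, 10.39 and 11.42 in lectin-only cells and 11.22, 11.55 and 11.26 in columnar cells. GFP+ arrays lay below the columnar ones, with lectin-only arrays overlapping both. It was 2.73-fold lower in GFP+ than in columnar cells (-1.45 ± 0.34, adjusted p = 0.0192), a call lost on leaving out GFP+ replicate 1 (-1.13) or 2 (-1.47), or columnar replicate 2 (-1.35). Cyp4b1, the lung-rich P450 that activates furans and aromatic amines, had signals of 12.79, 12.67 and 12.64, then 12.75, 12.83 and 12.88, and 13.26, 13.20 and 13.17 in GFP+, lectin-only and columnar cells. Its small difference of -0.51 ± 0.15 from columnar in GFP+ cells had an adjusted p = 0.0457 and was under the size threshold.

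The other P450 families, most of which act on retinoids, sterols, steroids and vitamin D, had 17 measured genes, of which 1 was higher and 1 lower in GFP+ than in columnar cells, 5.88% each, against 5.88% and 5.33% of all genes. Cyp26b1, which inactivates retinoic acid, was the only one of the 78 genes that was called higher in all 3 comparisons. It had signals of 7.44, 7.77 and 8.23 in GFP+ cells, 5.51, 5.36 and 6.12 in lectin-only cells and 3.59, 3.59 and 4.02 in columnar cells, where it lay just above background. No gates overlapped. The GFP+ level was 16.9-fold the columnar one (4.08 ± 0.27, adjusted p = 1.88e-05) and 4.45-fold the lectin-only one (2.15 ± 0.27, adjusted p = 0.0029), and the lectin-only level was 3.81-fold the columnar one (1.93 ± 0.27, adjusted p = 0.0018). Its relative Cyp26a1 was above background on 2 arrays, at 5.21 on GFP+ replicate 2 and at 3.82 on lectin-only replicate 3, and was not called.

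Cyp7b1, an oxysterol hydroxylase, was lower in GFP+ than in columnar cells by 3.17-fold (-1.66 ± 0.43, adjusted p = 0.0293). Its signals were 6.13, 7.40 and 8.07 in GFP+ cells, 8.24, 8.64 and 8.59 in lectin-only cells and 8.69, 8.59 and 9.31 in columnar cells. GFP+ replicate 1 was the lowest by over 1 unit. The call was lost without any 1 columnar array (-1.44 to -1.80) or without GFP+ replicate 2 (-1.76), and it was also lost when only both gates compared were fitted (adjusted p = 0.0702). Of its other probe sets, 1 gave -2.42 and the other, under background, -0.16. Cyp51, the demethylase of cholesterol synthesis, was at 8.73 on the same GFP+ array, against 10.17 and 9.87 on the other GFP+ arrays, 10.61, 10.49 and 10.69 in lectin-only cells and 10.37, 10.15 and 10.11 in columnar cells, and was not called. Cyp24a1, which breaks the vitamin D hormone down, and Cyp27b1, which makes it, lay between 3.62 and 5.58 on every array. These 2 genes differed by at most 0.14 in any comparison, and other genes of vitamin D were not gathered here.

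Of the 4 measured flavin monooxygenases, Fmo1 was the 1 called. Fmo1, which oxidises many drugs with nitrogen or sulphur, was lower in each step towards the GFP+ gate, with signals of 6.08, 6.41 and 6.52 in GFP+ cells, 7.95, 7.35 and 8.34 in lectin-only cells and 9.12, 9.67 and 9.42 in columnar cells. No gates overlapped. The GFP+ level was 8.37-fold lower than the columnar one (-3.06 ± 0.27, adjusted p = 8.35e-05). Lectin-only cells were lower than columnar cells by 2.87-fold (-1.52 ± 0.27, adjusted p = 0.0056).

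Fmo2, the main lung form and the neighbour of Fmo1 with no protein-coding gene between, had signals of 11.92, 11.74 and 11.55 in GFP+ cells, 11.40, 11.52 and 11.34 in lectin-only cells and 11.55, 11.48 and 11.31 in columnar cells. It was not called, with a difference of 0.29 ± 0.17 in GFP+ against columnar (adjusted p = 0.339), and its other 4 probe sets lay between -0.38 and 0.52. Fmo4, on the other side of Fmo1, was under background on all arrays. Fmo5 had signals of 8.16, 7.96 and 9.29 in GFP+ cells, 8.15, 7.34 and 9.42 in lectin-only cells and 6.76, 8.20 and 8.04 in columnar cells, which overlap. The 3 probe sets of Fmo5 disagreed in size, at 0.80, 1.90 and 0.72 in GFP+ against columnar, and the middle one was called (adjusted p = 0.0152) when probe sets open to cross-hybridisation were left out. Ephx1, the microsomal epoxide hydrolase, had signals of 12.41, 12.08 and 12.09 in GFP+ cells, 11.87, 12.004 and 11.74 in lectin-only cells and 12.26, 12.09 and 12.09 in columnar cells. Its difference of 0.05 ± 0.17 in GFP+ against columnar was smaller than its SE (adjusted p = 0.913).

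**Figure D2:**
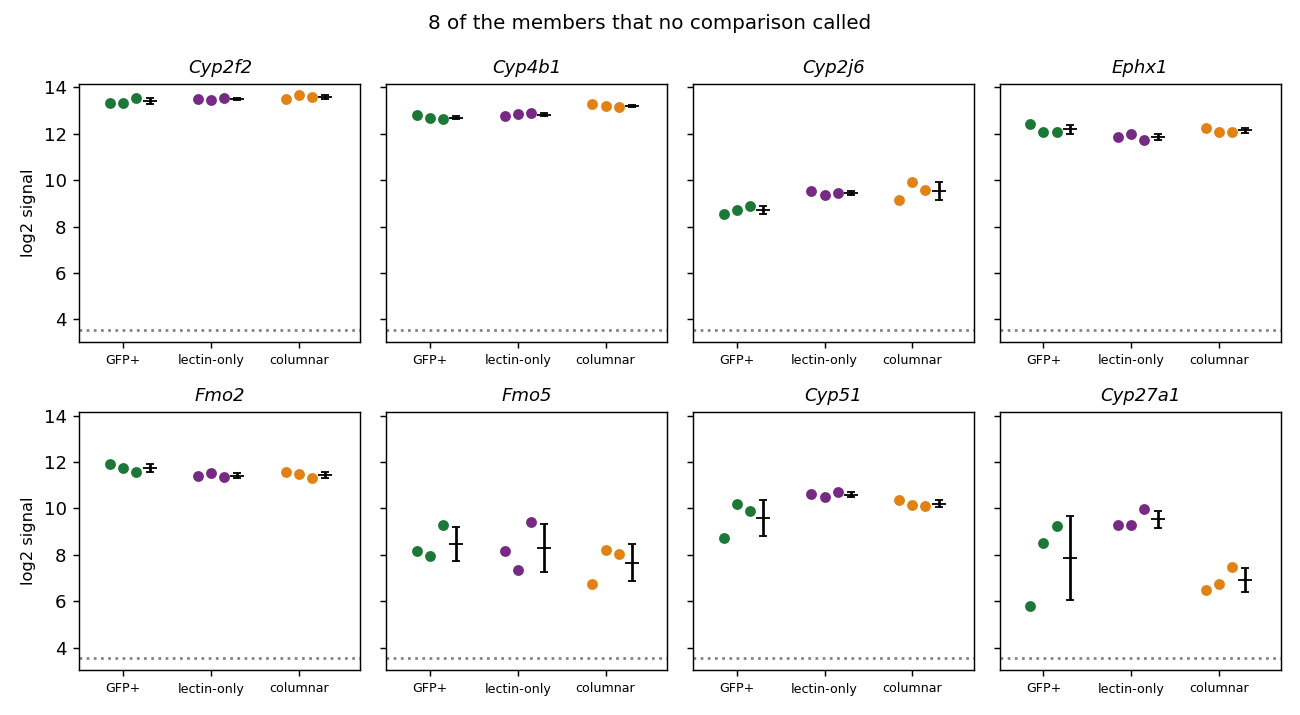
Log2 signal (vertical axis) of 8 genes that no comparison called, by gate, with points for arrays, bars for the mean and SD of 3 arrays and a dotted line at the background level of 3.55. The gate means of Cyp2f2, Ephx1 and Fmo2 differ by 0.33 or less, and Cyp51 and Cyp27a1 show GFP+ replicate 1 apart from the other GFP+ arrays.

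Lectin-binding cells in which the reporter was not seen were set against columnar cells, since the labels count both lectin-binding gates as basal. Here Cyp1b1, Cyp3a13, Cyp17a1, Cyp2j9 and Cyp26b1 were higher and Fmo1 and Cyp4f15 were lower, and 71 genes were not called. The 5 higher genes are 6.41% of the 78, where 6.47% of all genes were called higher, and the 2 lower ones are 2.56%, where 2.38% were. The median difference over the 18193 genes was 0.07, and -0.17 once each array was centred on its median, so scaling matters to small values, and none of these 7 directions was turned by it. With only genes above background on at least 3 arrays fitted, 6 of the 34 members were higher and 2 lower. In that fit 1634 of 14287 genes were called in either direction, a smaller share than of the members. The near-equal shares above thus hold over all 78 genes, dim ones included.

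Cyp1b1, which oxidises oestradiol and aromatic hydrocarbons, had signals of 8.56, 8.07 and 8.61 in lectin-only cells and 3.57, 5.99 and 4.31 in columnar cells. In the GFP+ gate it lay at 3.54, 6.49 and 7.59, with replicate 1 under background. The lectin-only arrays were all above the others, and the GFP+ arrays spread over the whole range below them. Lectin-only cells were 13.8-fold higher than columnar cells (3.79 ± 0.93, adjusted p = 0.0289), but the call was lost without columnar replicate 1 (3.27) or 3 (3.63), or without lectin-only replicate 1 (3.72), 2 (3.96) or 3 (3.69). Without columnar replicate 2 the difference was 4.47, and as the mean of all probe sets 2.09, both still called. It was lost, too, with dim values set to background (adjusted p = 0.101). GFP+ against columnar was at 1.26 ± 0.93 (adjusted p = 0.481). It was called under 1 of 21 alternatives, without GFP+ replicate 1, at 2.42. Of the other probe sets of Cyp1b1, 1 gave 2.48 and the other, under background, -0.01 in lectin-only against columnar.

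Cyp17a1, known from androgen synthesis in gonads, had signals of 5.17, 4.72 and 5.92 in lectin-only cells, while all columnar arrays were under background at 2.23, 3.09 and 3.02. The fitted difference was 2.49 ± 0.41 (adjusted p = 0.0038). With dim values set to background it was 1.72 ± 0.31 (adjusted p = 0.0226), so the estimated fold of the lectin-only gate was 3.29 or more. This bound allows for the dim columnar values and not for the error of the difference. GFP+ arrays lay at 2.96, 4.08 and 4.15. Cyp27a1, the mitochondrial sterol hydroxylase of bile acid synthesis, had signals of 9.30, 9.30 and 9.97 in lectin-only cells and 6.47, 6.76 and 7.49 in columnar cells, without overlap. Its difference of 2.62 ± 0.74 just missed the threshold (adjusted p = 0.0529; its other, dim probe set gave -0.06), and its GFP+ arrays, at 5.82, 8.53 and 9.26, spread widely. The lectin-only difference was called under 7 of 21 alternatives, such as without GFP+ replicate 1 or 3. Over all of them it ranged from 1.28 to 2.91, with an adjusted p of up to 0.158. GFP+ against columnar was at 0.97 ± 0.74 (adjusted p = 0.498). Without GFP+ replicate 1 it was 1.99 ± 0.37 and called, but it ranged down to 0.27 (adjusted p up to 0.911).

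Leukocyte markers, too, were highest in the lectin-only gate, where these 3 genes had their highest signals. Of 22 measured markers, 18 were higher and 0 lower in lectin-only than columnar cells in limma, and their summed linear signal was 46460 to 60902 in lectin-only, 12294 to 17949 in GFP+ and 22889 to 23370 in columnar cells. The sum is carried by bright genes such as Lyz2, the 1 marker lower in GFP+ than columnar cells, while 6 markers were higher there and the median difference was 1.01. Ptprc, the leukocyte common antigen, had signals of 8.85, 8.29 and 9.72 in lectin-only cells and 4.36, 2.86 and 2.53 in columnar cells. GFP+ cells had Ptprc at 5.11, 4.73 and 6.38. On the same arrays Cyp27a1 was at 5.82, 8.53 and 9.26, Cyp1b1 at 3.54, 6.49 and 7.59 and Cyp17a1 at 2.96, 4.08 and 4.15. Within the GFP+ gate, Ptprc thus did not share the order of arrays of these genes. Csf1r, at 7.60, 7.52 and 9.25, did not share it either. Cd74, at 8.49, 9.30 and 9.87, rose in the same order as the 3 genes. Only Cd3g was under background on all columnar arrays, and the part of leukocytes in the levels of Cyp1b1, Cyp27a1 and Cyp17a1 was not tested.

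**Figure D3:**
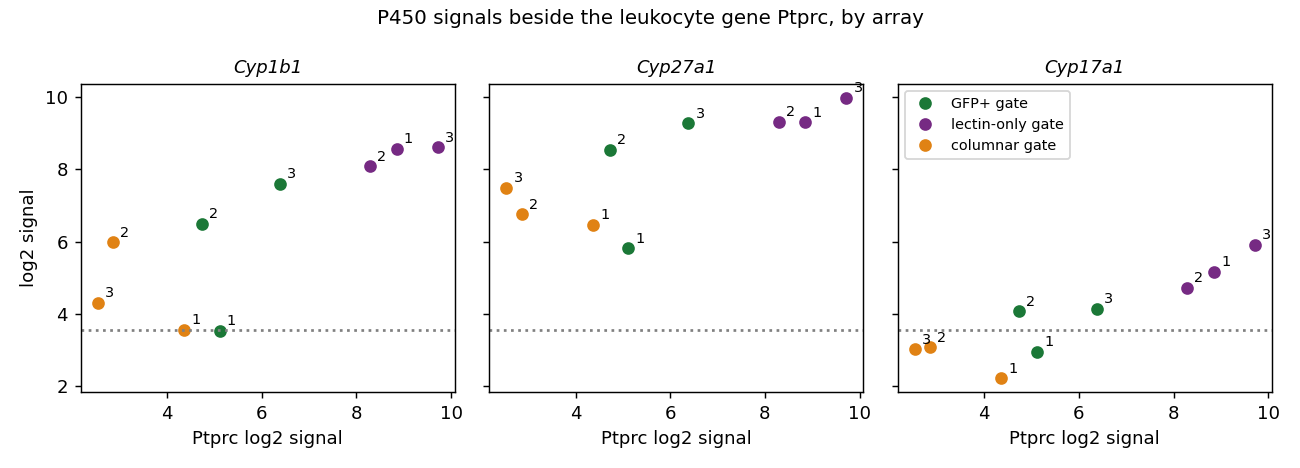
Log2 signals of Cyp1b1, Cyp27a1 and Cyp17a1 (vertical axis) against that of the leukocyte gene Ptprc (horizontal axis) on the 9 arrays, with the replicate number beside each point and the background level of 3.55 dotted. The lectin-only arrays lie at the upper right in each panel, and GFP+ replicate 1 is as low on the vertical axis as the columnar arrays.

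GFP+ and lectin-only cells, both named basal by the labels, were compared last, and 3 of the 78 genes were called, where 3.74% of all genes were. The median difference over the 18193 genes was -0.10, and 0.06 once each array was centred. Cyp26b1 was higher in GFP+ cells, which is 1.28% of the genes where 0.896% of all genes were called higher. Fmo1 and Cyp4f15 were lower, which is 2.56% where 2.84% of all genes were called lower. Among genes above background on at least 3 arrays, 1 of 34 members was higher and 3 lower. In that fit 712 of 14287 genes were called in either direction. Fmo1 was 2.91-fold lower in GFP+ than in lectin-only cells (-1.54 ± 0.27, adjusted p = 0.0129), a call lost without GFP+ replicate 1 (-1.41) or lectin-only replicate 1 (-1.51). Cyp4f15 was 4.09-fold lower (-2.03 ± 0.32, adjusted p = 0.0082), and its call was lost without GFP+ replicate 1 and lectin-only replicate 3 together (-1.94), a pair chosen after seeing the data. In all 3 genes, the lectin-only arrays lay between those of the GFP+ and the columnar gate. Cyp3a13 and Cyp2j9, by contrast, overlapped between both lectin-binding gates.

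**Figure D4:**
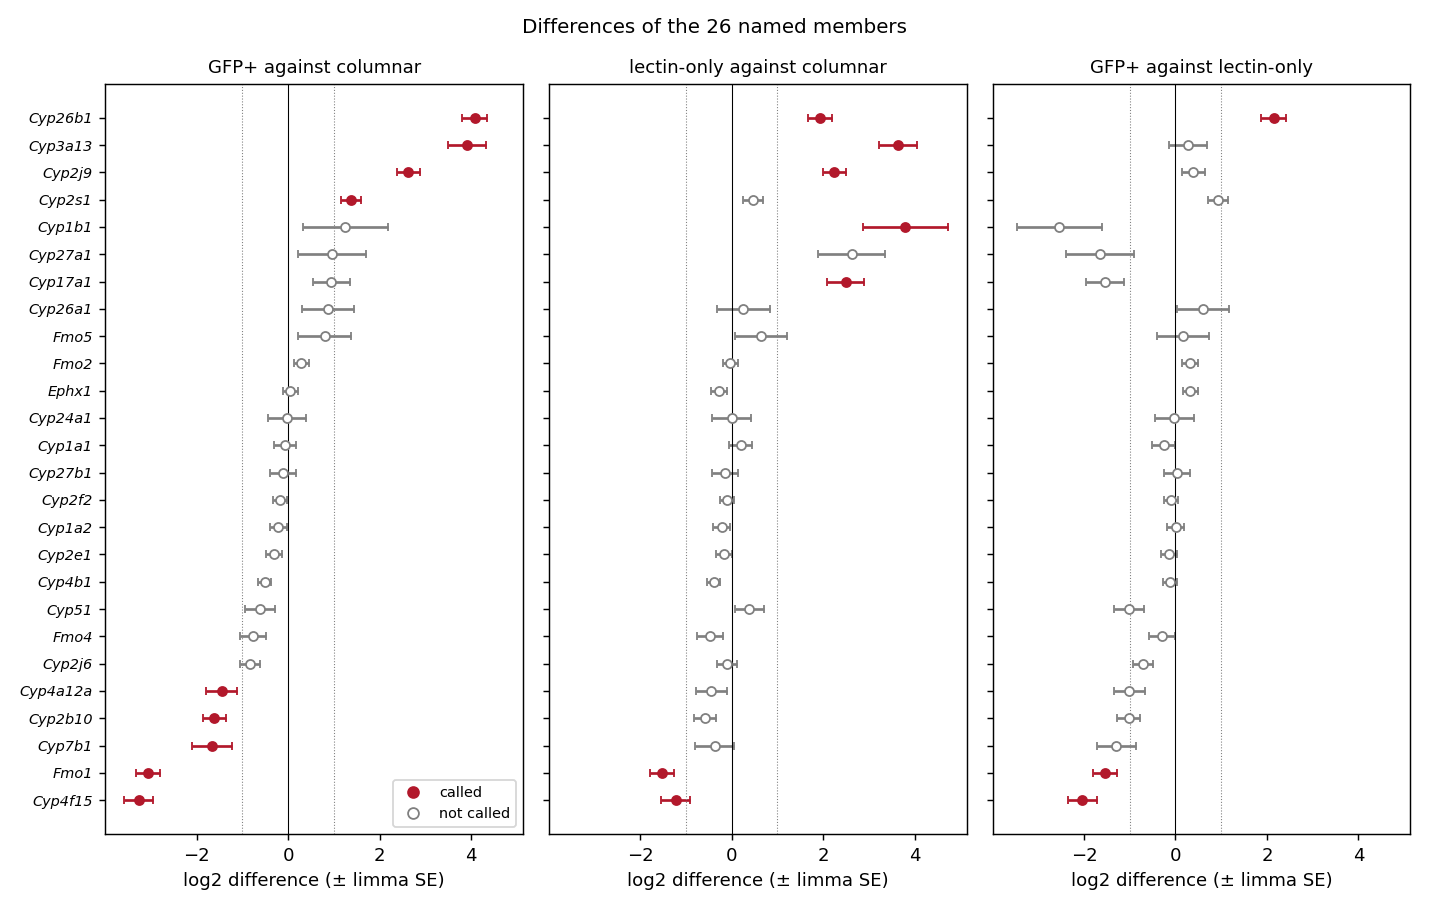
Log2 differences (horizontal axis, with limma SE as bars) of the 26 named genes in the 3 comparisons, ordered by GFP+ against columnar from the highest at the top. Filled points are called genes, and dotted lines mark a difference of 1 in either direction. Of 78 differences shown, 19 were called.

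Some genes stood just outside the calls. Cyp20a1, a P450 whose substrate is not known, and Cyp39a1, an oxysterol hydroxylase, were lower in GFP+ than in columnar cells by -0.84 ± 0.19 (adjusted p = 0.0168) and -0.81 ± 0.22 (adjusted p = 0.0368), under the size threshold. Cyp4v3, a fatty acid hydroxylase, had a difference of -1.22 ± 0.36 with an adjusted p = 0.0505. Cyp2r1 was at -1.42 ± 0.45 in GFP+ against columnar (limma adjusted p = 0.0686), without overlap of arrays. Cyp4f39 was at -1.86 ± 0.48 in GFP+ against lectin-only (adjusted p = 0.0648), with 6.56 on GFP+ replicate 1, against 8.35 and 8.52 on the other GFP+ arrays and 9.36, 9.60 and 10.03 in lectin-only cells. All genes of this paragraph were named after their values were seen.

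Of 44 measured genes that serve or regulate these enzymes, 5 were called in GFP+ against columnar, which is 11.4% where 11.2% of all genes were, and 3 in lectin-only against columnar, which is 6.82% where 8.85% were. Of the 7 measured redox partners, which pass electrons to P450s or bind them, 0 were called by limma in any comparison. At an unadjusted p under 0.05 they numbered 5 in GFP+ against columnar, 1 in lectin-only against columnar and 0 in GFP+ against lectin-only, where 25.1%, 21.8% and 15.3% of all genes passed that threshold, and their median difference in GFP+ against columnar was -0.39, against -0.04 over all genes. Their summed linear signal was 17035 to 17751 in GFP+, 17042 to 22017 in lectin-only and 22299 to 23438 in columnar cells. Of 12 measured genes of haem synthesis and breakdown, Blvrb, a biliverdin reductase, and Hmox1, the inducible haem oxygenase, were lower in GFP+ than in columnar cells. Blvrb had signals of 9.08, 8.98 and 8.55 in GFP+ cells and 10.40, 10.25 and 10.43 in columnar cells (-1.49 ± 0.19, adjusted p = 5.83e-04). Hmox1 lay at 9.19, 8.85 and 8.61 in GFP+ cells and 10.48, 9.94 and 9.996 in columnar cells (-1.26 ± 0.24, adjusted p = 0.0066). Alas1, the first enzyme of haem synthesis, was at -0.53 ± 0.20 and was not called (adjusted p = 0.136).

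Among 21 measured receptors and other regulators of drug and lipid metabolism, 3 were higher and 0 lower in GFP+ than in columnar cells, where 5.88% of all genes were higher and 5.33% lower. Ppara, the fatty acid receptor that induces family 4 genes in liver, had signals of 6.47, 6.26 and 6.36 in GFP+ cells, 5.57, 5.25 and 5.48 in lectin-only cells and 3.97, 3.71 and 4.14 in columnar cells. The gates did not overlap, and Ppara was higher by 2.43 ± 0.18 in GFP+ (adjusted p = 3.62e-05) and by 1.49 ± 0.18 in lectin-only cells (adjusted p = 7.45e-04) than in columnar cells. Tiparp, a target of the dioxin receptor, was higher by 1.11 ± 0.19 in GFP+ than in columnar cells (adjusted p = 0.0035), and Ppard by 1.03 ± 0.29 (adjusted p = 0.0393). In lectin-only against columnar, 2 of the 21 were higher, Ppara among them, and 0 lower, where 6.47% and 2.38% of all genes were. Ahr itself was at 11.40, 11.50 and 11.80 in GFP+ cells and 11.39, 11.50 and 11.30 in columnar cells, a difference of 0.17 ± 0.20 (adjusted p = 0.689). Ahrr, of the same list, was under background on all arrays, as were Cyp1a1 and Cyp1a2. Activity of Ahr was not tested. Of 4 further epoxide hydrolases, Ephx3 was higher in lectin-only than in columnar cells (4.19 ± 1.01, adjusted p = 0.0267), where its arrays lay at 9.90, 9.08 and 10.15 against 4.10, 5.45 and 7.02. The 4 gave 0 calls in either comparison of the GFP+ gate. In lectin-only against columnar, the 3 called genes of the 44 fell to 1 without columnar replicate 1 or with dim values set to background. Which of them were lost is not given here.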

How the data were processed

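RNA of cells sorted from the tracheal epithelium was purified with a column kit, amplified and hybridised, per the labels' protocols. The deposited values are log2 probe set signals that the authors made with RMA, per the submitters' processing notes; its software version and any filter are not given in the sources used here. The array annotation paired 34945 of 45101 probe sets with 1 gene, 932 with several and 9160 with none, leaving 18193 genes; looking up 34741 probe sets in the RefSeq table changed 0 symbols. One limma model (version 3.58.1, R 4.3.3, eBayes) held all 9 arrays, with Benjamini-Hochberg adjustment over all genes in each comparison. Errors of differences are limma standard errors, and the number of arrays limits the precision (median SE 0.24 over all genes). The fit was tested on simulated data. Where a gene was under background on all arrays of a gate, a fold is given as a bound on the estimate, which leaves out its error.

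The genes, the lists and the rule for names were chosen with earlier results of these data known. Named are all members called in any comparison and a fixed set of well-known members. The labels do not say that replicates are separate animals, so p-values measure the spread between these samples. The labels do not say whether same-numbered arrays share animals, so the number was used as a block only in an alternative. Alternatives covered scaling, choice of probe set, dim genes, variance model, samples fitted, replicate block, threshold and leaving out arrays.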

Additional observations from a re-analysis of the deposited data

How the results depend on the processing

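Over 21 alternatives, 13 of the 19 calls of named genes kept their direction and their call, and 0 turned direction. The other 6 lost the call under some alternatives: Cyp1b1 and Cyp4f15 in lectin-only against columnar, Cyp4a12a and Cyp7b1 in GFP+ against columnar, and Fmo1 and Cyp4f15 in GFP+ against lectin-only. The cause was not tested. The 5 genes lower in GFP+ against columnar were 3 with dim values set to background and 9 with no minimum difference, and the 2 lower in lectin-only against columnar were 1 with dim values set to background. In GFP+ against lectin-only, the 1 higher gene became 2 with centred arrays, further quantile normalization or no minimum difference, and the 2 lower became 4 with the mean of all probe sets or without probe sets open to cross-hybridisation, and 5 with trend and robust variance. All genes called there numbered 341 with dim values set to background, against 680. With the replicate number as a block, members lower in GFP+ against lectin-only were 5, all genes called were 2193, 1785 and 906 in the 3 comparisons, and Cyp27a1 in lectin-only against columnar (adjusted p = 0.014) and Cyp17a1 (0.0265) and Cyp2b10 (0.042) in GFP+ against lectin-only were called. Deviations of same-numbered arrays correlated between -0.07 and 0.37 and of others between -0.50 and 0.20. Not every same-numbered pair was above 0.1, and not every array correlated best with its own number. With 3 arrays per gate such correlations cannot settle the pairing, which the labels do not give. All genes called without the block were 2038, 1610 and 680, fewer than with it in each comparison. Partner genes called were 5 in GFP+ against columnar, and 9 with no minimum difference; 3 in lectin-only against columnar, 1 with dim values set to background and 6 with no minimum difference; and 0 in GFP+ against lectin-only (limma), 2 after quantile normalization and 1 under each of 6 others (centred arrays, mean of probe sets, no cross-hybridising probe sets, dim genes left out, trend and robust variance, no minimum difference). Leaving out 1 array gave 4 to 6 higher and 3 to 6 lower members in GFP+ against columnar, 4 to 7 and 1 to 2 in lectin-only against columnar, and 1 and 1 to 3 in GFP+ against lectin-only. Partner genes ranged over 4 to 6, 1 to 4 and 0 to 1, and all genes called over 1687 to 2070, 1343 to 1634 and 373 to 633. Without GFP+ replicate 1 and lectin-only replicate 3 together, chosen after seeing the data, the lower members were 1 in lectin-only against columnar and 0 in GFP+ against lectin-only, with 235 genes called in all, and 8 partner genes were called in GFP+ against columnar.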
